A study of Mus musculus with 2 samples.

Results

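The integrin and laminin subunits were taken by gene symbol, as every gene named as an integrin alpha chain, an integrin beta chain or a laminin alpha, beta or gamma chain. The rule gave 36 of the 32285 genes in the count tables, 25 integrin subunits and 11 laminin chains, and used no measured value. Over both libraries 32 of the 36 held at least 20 unique molecular identifiers (UMIs), the barcodes that mark single captured transcripts, and 31 held at least 100. The 4 below 20 UMIs were Itga7, Itgam, Itgax and Itgb2.

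The data were single-cell transcriptomes of whole mouse embryos at embryonic day 9.5, with 1 library of wild-type and 1 of Usb1-null embryos. Usb1-null embryos carried a germline knockout of Usb1, made with CRISPR/Cas9 and obtained by crossing heterozygous mice. Usb1 encodes an enzyme that shortens the tail of the spliceosomal U6 RNA, and the study asked which embryonic cell types need it. The sources used here do not give the number of embryos in each library.

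Laminins are secreted trimers of an alpha, a beta and a gamma chain, and they form the sheet of the basement membrane on which epithelia, endothelia and muscle cells rest. Integrins are receptors of the cell surface, made of an alpha and a beta subunit, and the alpha subunit largely sets the ligand. Itga3, Itga6 and Itga7 bind laminin. Itga5, Itga8, Itgav and Itga2b bind ligands with the Arg-Gly-Asp motif, such as fibronectin, and Itga1, Itga2, Itga10 and Itga11 bind collagen. A gene that encodes a laminin chain marks a possible source of laminin, and one that encodes a laminin-binding integrin marks a possible receiver, although transcripts do not show where the protein lies.

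After filtering, 15161 wild-type cells with 21732106 UMIs and 13018 Usb1-null cells with 33383886 UMIs remained, with medians of 1243 and 2299.5 UMIs per cell. With 1 library per genotype no difference has a replicate check, so no test was made, and all intervals are 95% intervals for counting error only. Usb1 held 68 UMIs in the wild-type and 47 in the Usb1-null library, 3.13 and 1.41 CPM (UMIs of a gene per 1000000 UMIs), a ratio of 0.450 (0.303 to 0.662). The study places the deletion at the 5′ end of the gene, over its second exon and by one description also its first, and the counts do not give the position of reads within the gene, so this level does not check the deletion itself. Xist was at 2451 CPM in the wild-type and 0.779 CPM in the Usb1-null library, while 4 Y-linked genes summed to 0.644 and 702.8 CPM, so genotype and the sex of the embryos cannot be told apart. The libraries shared 61 cell barcodes.

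Joint clustering without the 36 genes gave 17 clusters that held 100 or more cells from each library. Of these, 9 were named "-like" from marker lists, and the other 8 kept a number. Their raised markers were of proepicardium, splanchnic mesoderm and limb in cluster 1, midbrain and forebrain in cluster 3, neural crest and craniofacial mesenchyme in cluster 5, neural tube, hindbrain and roof plate in cluster 6, and yolk sac endoderm and gut in cluster 11. Cluster 12 was led by Tbx1 and Tlx1, cluster 15 by Lmx1a, Trpm3 and Tbx2, and cluster 8 held cells with few UMIs. Primitive erythroid-like cells, which are not known to lay down basement membrane, served as the reference for free RNA. They were the lowest cluster for Lamb2, Lamb3, Itgb1 and Itgb4. For other genes they lay above the lowest cluster, as for Itga8 (124 against 10.6 CPM), Itga9 (99.3 against 35.1 CPM) and Lama4 (21.7 against 4.66 CPM). Their level therefore need not be free RNA alone. The 3′ kit is meant to read each UMI at the 3′ end of a transcript, so levels were not scaled by gene length. Levels of different genes are set side by side as molecules captured. Whether intronic reads were counted is not stated, and any part of gene length in the order of genes was not tested.

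Of the 11 laminin chains, Lama1, Lamb1 and Lamc1, which together form the first laminin trimer of the early embryo, held most UMIs. Lamc1 was at 154 CPM in each library, Lama1 at 151 CPM among wild-type cells and 141 CPM among Usb1-null cells, and Lamb1 at 134 and 132 CPM. The alpha chains Lama2, Lama4 and Lama5 lay between 36.5 and 44.7 CPM. The remaining chains lay below 25 CPM in both libraries, the lowest being Lama3 at 3.08 and 2.46 CPM.

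**Figure D1:**
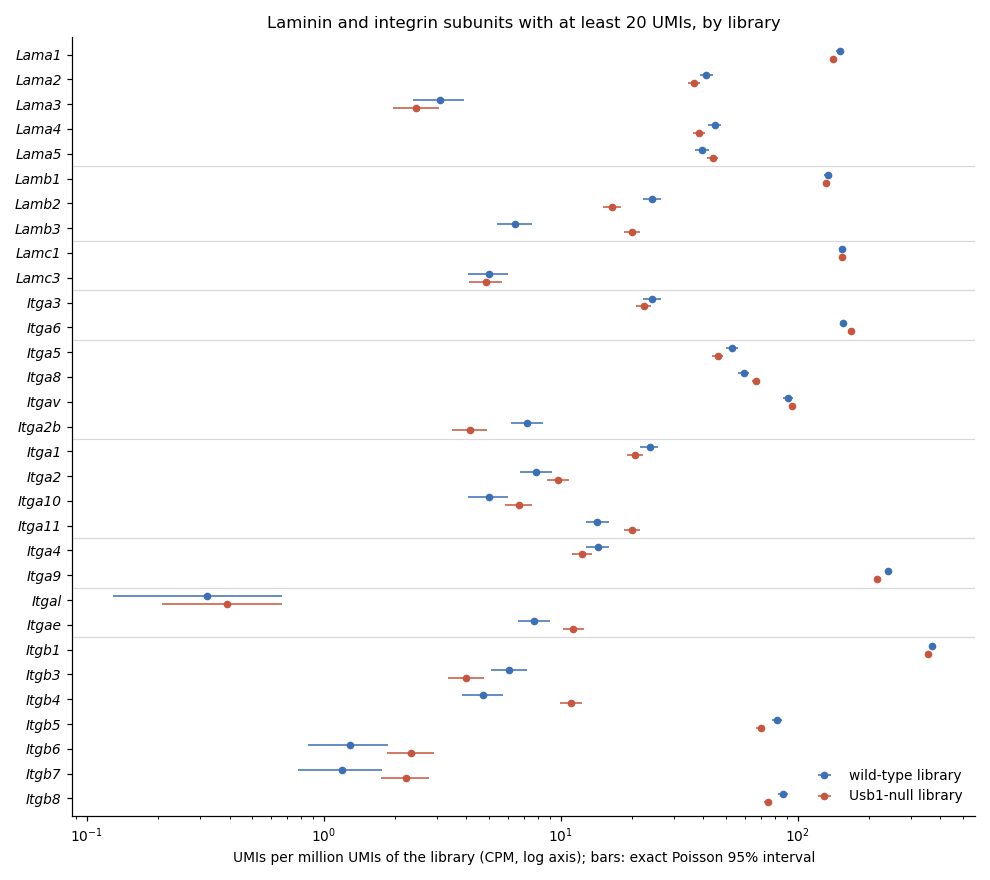
Level of 31 of the 32 laminin chains and integrin subunits with at least 20 UMIs, in CPM (horizontal log axis), in the wild-type library (blue) and the Usb1-null library (red), with exact Poisson 95% intervals for counting error only. Itgb1 was highest in both libraries, and the points of Lamb3 lay at 6.40 and 19.98 CPM.

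The alpha chains, which carry the binding sites for most receptors, divided the embryo among them. Lama1 (chr17:67697259-67822647, plus strand, GRCm38) was highest in neural tube progenitor-like cells, at 321 CPM for wild-type and 258 CPM for Usb1-null cells. Sclerotome-like cells followed at 212 and 209 CPM, and cardiomyocyte-like cells were lowest, at 40.5 CPM over both libraries. The intervals of the first and second clusters did not overlap (268 to 296 against 201 to 220 CPM over both libraries). Within a finer partition of the cells, Lama1 was highest in presomitic mesoderm and tail bud-like cells, with 664 CPM over 95 wild-type cells and 529 CPM over 151 Usb1-null cells.

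Lama4 (chr10:38965515-39110188, plus strand), the chain typical of vessel walls, was at 315 and 275 CPM in endothelial-like cells and at 238 and 198 CPM in cardiomyocyte-like cells. Intermediate mesoderm-like cells were at 60.3 and 24.1 CPM, the other 14 clusters were below 50 CPM in each library, and cluster 11 was lowest at 4.66 CPM over both libraries. Endothelial-like cells held 47.9% of all Lama4 UMIs. Lama5, the chain of many epithelial basement membranes, was highest in surface ectoderm-like cells, at 146 and 150.3 CPM, and next in cluster 11, at 79.1 and 106 CPM.

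Lama2, the chain known from the basement membrane of muscle, was at 105 and 91.5 CPM in sclerotome-like cells, a cluster that also raised dermomyotome markers, and at 84.8 and 92.1 CPM in cardiomyocyte-like cells. The intervals of these clusters overlapped. In the finer partition, Lama2 reached 302 CPM (wild-type) and 202 CPM (Usb1-null) in a small cluster with proepicardium markers. Lama3 was low throughout, and 55.7% of its UMIs lay in endothelial-like cells, at 22.3 CPM.

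As a share of all laminin alpha UMIs, Lama1 led in 12 clusters, Lama5 in 3 and Lama4 in 2. In neural tube progenitor-like cells Lama1 made up 87.0% (85.4 to 88.5) of alpha chain UMIs. Lama4 made up 62.7% (60.3 to 64.97) in endothelial-like and 55.4% (52.1 to 58.8) in cardiomyocyte-like cells, and Lama5 57.8% (54.98 to 60.6) in surface ectoderm-like cells. Lama5 also led in cluster 15 and in neuron-like cells, where its interval overlapped that of Lama1. Lama2 exceeded a share of 20% only in sclerotome-like cells, cluster 1, cardiomyocyte-like and floor plate-like cells. The same chain led in both libraries in the endothelial-like, cardiomyocyte-like and surface ectoderm-like clusters.

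**Figure D2:**
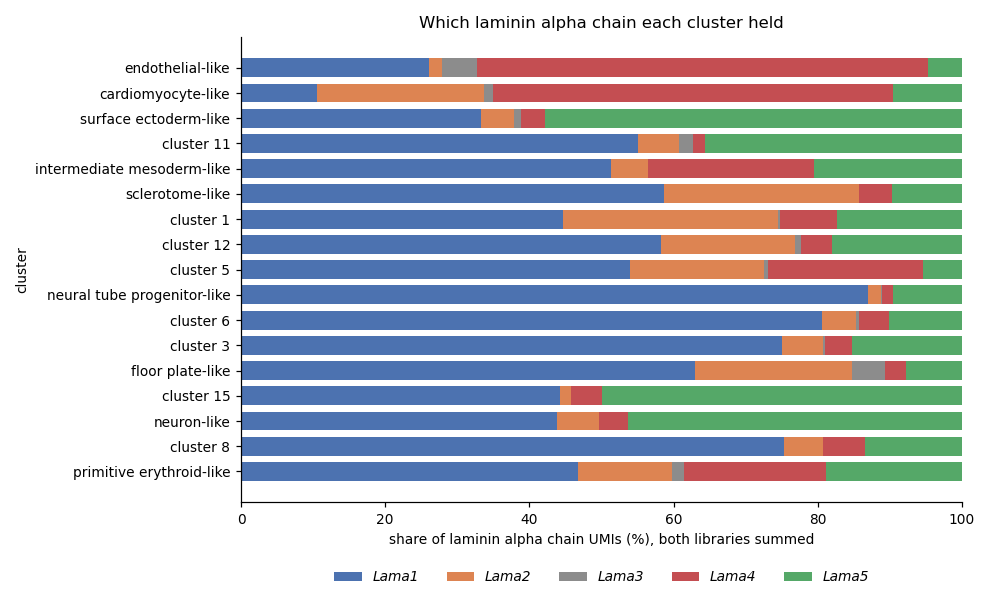
Share of laminin alpha chain UMIs (horizontal axis, percent) that each of the 5 alpha chains held in each of 17 clusters, with both libraries summed. Lama1 led in 12 clusters, Lama4 in endothelial-like and cardiomyocyte-like cells, and Lama5 in surface ectoderm-like cells, cluster 15 and neuron-like cells.

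The beta chains differed both in place and between the libraries. Lamb1, the beta chain of most embryonic laminins, was at 337 and 380 CPM in endothelial-like cells and at 264 and 224 CPM in cluster 11. Its lowest level was 29.7 CPM, in cluster 6. Lamb2, which replaces Lamb1 in some later basement membranes, was highest in cardiomyocyte-like cells, at 52.7 and 29.3 CPM. Over both libraries the interval there overlapped that of cluster 1 (30.6 to 47.2 against 24.6 to 32.1 CPM). Lamb3 is known from the laminin of the skin, and was between 1.81 and 30.1 CPM in the 17 clusters. The stretches upstream of these genes are printed because the whole-library ratio of Usb1-null to wild-type was near 1 for Lamb1, below it for Lamb2 and above it for Lamb3.

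The stretches are the 250 bases before the RefSeq start, on GRCm38.p6, all on the plus strand and written 5′ to 3′. GENCODE places the starts of Lamb1, Lamb2 and Lamb3 farther upstream, so the stretch of Lamb3 lies within its longer gene model and those of Lamb1 and Lamb2 reach past the GENCODE start. Capitals mark matches on either strand to the motifs searched.
Lamb1, chr12:31265043-31265292: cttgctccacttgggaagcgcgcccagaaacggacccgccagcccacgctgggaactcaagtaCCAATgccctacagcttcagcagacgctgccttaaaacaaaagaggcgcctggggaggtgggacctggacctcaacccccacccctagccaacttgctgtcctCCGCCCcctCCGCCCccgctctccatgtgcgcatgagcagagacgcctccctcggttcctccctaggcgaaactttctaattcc
Lamb2, chr9:108479612-108479861: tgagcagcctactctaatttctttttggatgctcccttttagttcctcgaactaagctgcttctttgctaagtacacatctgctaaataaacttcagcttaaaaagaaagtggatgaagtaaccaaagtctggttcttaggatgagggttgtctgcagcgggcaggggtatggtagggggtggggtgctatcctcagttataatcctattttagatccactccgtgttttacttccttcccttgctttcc
Lamb3, chr1:193301744-193301993: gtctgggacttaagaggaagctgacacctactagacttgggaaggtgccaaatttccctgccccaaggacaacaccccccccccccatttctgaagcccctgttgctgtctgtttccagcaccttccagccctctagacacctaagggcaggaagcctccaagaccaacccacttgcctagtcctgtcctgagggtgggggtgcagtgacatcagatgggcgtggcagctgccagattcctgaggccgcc
The motifs were the GC box, spelled GGGCGG, the CCAAT box, the TATA box in the form TATAAA, the AP-1 motif in the form TGANTCA and the grainyhead motif in the form AACCGGTT. None of these spellings holds another. The Lamb1 stretch held 2 GC boxes, both on the other strand, and 1 CCAAT box, whereas none of the 5 motifs was found in the Lamb2 and Lamb3 stretches. G and C made up 62.0%, 43.6% and 58.8% of the stretches of Lamb1, Lamb2 and Lamb3. RefSeq windows of 300 bases, which run 50 bases past the start, were at hand for 23 of the 36 genes, 26 windows in all. The GC box was in 12 of these windows against 35.7% of all 32851 windows, the CCAAT box in 4 against 37.4%, the AP-1 motif in 3 against 7.81%, the TATA box in 0 against 13.6% and the grainyhead motif in 0 against 0.146%.

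Of the gamma chains, Lamc1 was spread over all clusters. It was at 225 and 221 CPM in endothelial-like cells and at 217 and 216 CPM in surface ectoderm-like cells, and its lowest level, in neuron-like cells, was 87.9 CPM. Primitive erythroid-like cells held 120 CPM of Lamc1. In a small group of 46 wild-type and 30 Usb1-null surface ectoderm-like cells of the finer partition, Lama5 reached 232 CPM and Lamb3 94.1 CPM over both libraries. Lamc3 was highest in sclerotome-like cells at 17.1 CPM, which held 55.8% of its UMIs.

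Among the laminin-binding integrins, Itga6 (chr2:71745616-71858416, plus strand) was far above Itga3, and Itga7 held 7 UMIs in each library. Itga6, which pairs with Itgb1 or Itgb4, was highest in cardiomyocyte-like cells, with 622 CPM in the wild-type and 509 in the Usb1-null cells. Intermediate mesoderm-like cells followed at 362 and 416 CPM and endothelial-like cells at 331 and 331 CPM, and cluster 1 was lowest at 48.7 CPM. Primitive erythroid-like cells were at 61.4 CPM, so the lowest clusters lay at the level of the free RNA reference.

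Itga3, known from kidney and skin epithelia, was highest in surface ectoderm-like cells, at 115 and 88.0 CPM, and intermediate mesoderm-like cells followed at 60.3 and 69.3 CPM. Their intervals overlapped. In the finer partition, Itga6 was at 322 CPM in a fine cluster that raised 7 of 9 gut and 7 of 9 yolk sac endoderm markers, and at 69.3 CPM in yolk sac endoderm-like cells, so the cells that made up cluster 11 were not uniform. Endothelial-like cells also divided, with Itga6 at 350.1 CPM in the larger fine cluster and 120 CPM in the smaller, which had the endocardial gene Nfatc1 among its leading genes.

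**Figure D3:**
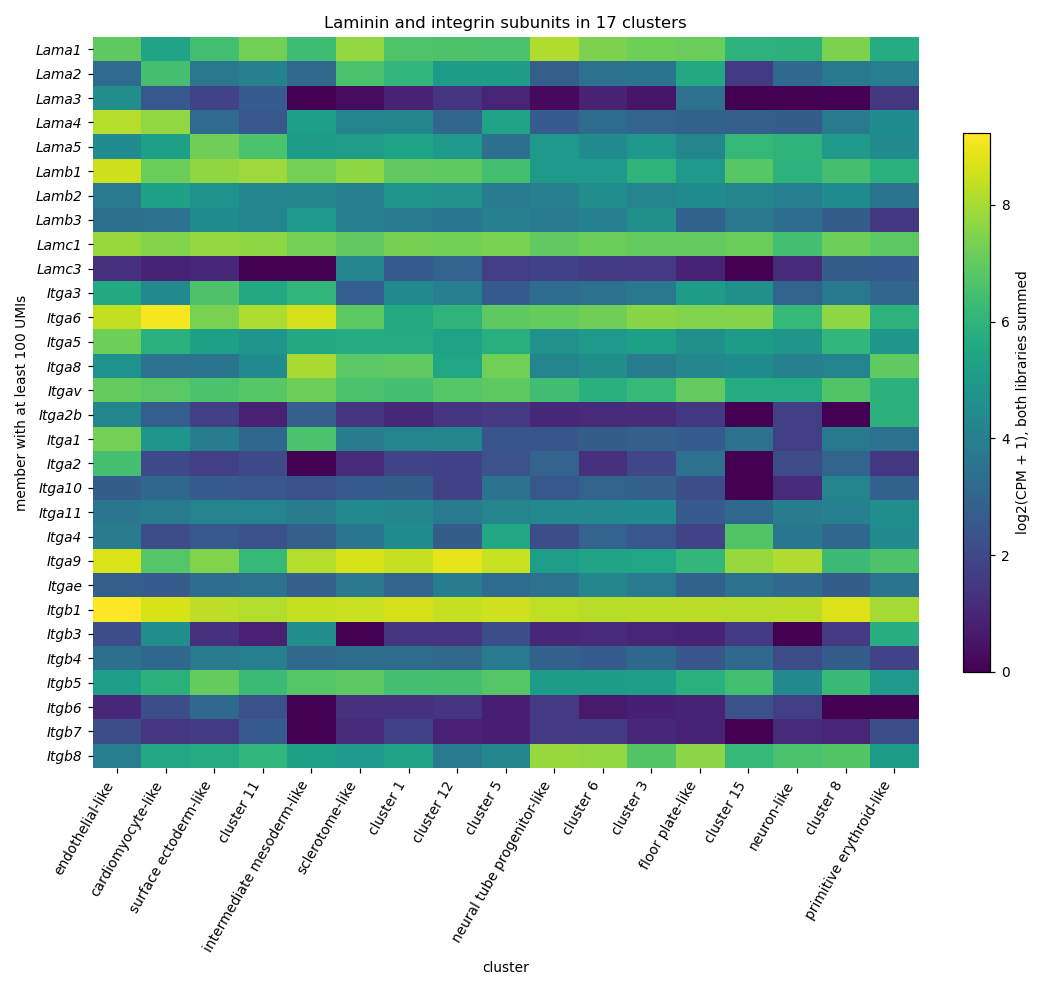
Level of 30 of the 31 genes with at least 100 UMIs (rows) in 17 clusters (columns), as log2(CPM + 1) with both libraries summed, from dark (low) to yellow (high). Lama4, Itga1 and Itga2 were brightest in endothelial-like cells, Lama5 and Itga3 in surface ectoderm-like cells, and Itga6 in cardiomyocyte-like cells.

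Summed over the 11 chains, laminin transcripts were highest in endothelial-like cells, with 1060.4 CPM in the wild-type and 1089 in the Usb1-null cells. Surface ectoderm-like cells, cardiomyocyte-like cells, cluster 11 and sclerotome-like cells followed between 738 and 764 CPM over both libraries, with intervals that overlapped between neighbours. Neuron-like and primitive erythroid-like cells were lowest, at 315 and 310 CPM, and did not differ beyond their intervals. Summed laminin-binding alpha subunits gave another order. Cardiomyocyte-like cells led at 646 and 528 CPM, followed by intermediate mesoderm-like cells at 422 and 485 CPM, endothelial-like cells at 383 and 376 CPM, cluster 11 and surface ectoderm-like cells, each with an interval apart from the next.

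The ratio of the laminin sum to the sum of Itga3, Itga6 and Itga7 was lowest in intermediate mesoderm-like cells, at 1.14, and in cardiomyocyte-like cells, at 1.33. It was highest in cluster 1, at 8.13, in cluster 12, at 6.41, and in sclerotome-like cells, at 5.90, and primitive erythroid-like cells came next, at 4.51. The integrin sums of clusters 1 and 12, 69.5 and 77.2 CPM, were near the 68.6 CPM of primitive erythroid-like cells, so a high ratio alone does not mark a source of laminin. Endothelial-like cells, with the highest laminin sum, were at 2.85. Across the 17 clusters Pearson's r between the sums was 0.596 and Spearman's rho 0.549, as a description of points that share libraries and depth. Wild-type cells alone gave an r of 0.652 and Usb1-null cells alone 0.530. The r lay between 0.406 and 0.521 under other clusterings.

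**Figure D4:**
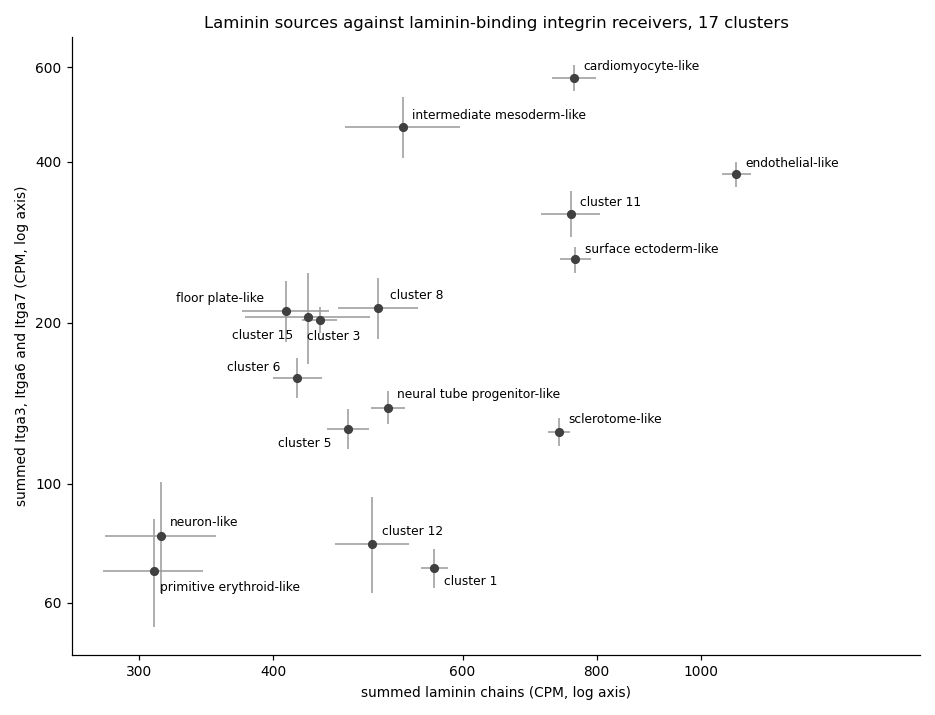
Summed laminin chains (horizontal log axis, CPM) against summed Itga3, Itga6 and Itga7 (vertical log axis, CPM) in 17 clusters with both libraries summed and exact Poisson 95% intervals. Endothelial-like cells were farthest to the right at 1078 CPM, cardiomyocyte-like cells were highest at 573 CPM, and primitive erythroid-like cells were lowest on both axes, at 310 and 68.6 CPM.

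Single cells held both sides in part. With each cell thinned to 800 UMIs, 55.2% of wild-type and 54.8% of Usb1-null endothelial-like cells held a laminin UMI, 26.7% and 25.4% a laminin-binding alpha UMI, and 14.9% and 14.2% both. Among cardiomyocyte-like cells 47.6% and 42.2% held a laminin UMI, 35.9% and 30.2% a laminin-binding alpha UMI, and 15.3% and 11.4% both. In primitive erythroid-like cells at the same depth these shares were 20% and 18.7%, 4.24% and 8.24%, and 0.909% and 2.75%. Of sclerotome-like cells 43.0% and 41.8% held a laminin UMI but 9.01% and 8.85% a laminin-binding alpha UMI. Thinning kept 12472 wild-type cells (82.3%) and 12714 Usb1-null cells (97.7%).

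Of the integrins that bind fibronectin and similar ligands, Itga5 was highest in endothelial-like cells, Itga8 in intermediate mesoderm-like cells and Itga2b in primitive erythroid-like cells, in each library. Itga5, the main fibronectin receptor subunit, was at 149 and 141 CPM there and next highest in cluster 8, at 74.0 and 63.7 CPM. Across the 17 clusters its levels followed those of its partner Itgb1 with r of 0.920, the highest value of the 17 pairs examined. Itga8, a nephronectin receptor needed for kidney formation, was highest in intermediate mesoderm-like cells, at 247 and 277 CPM. Cluster 5 was at 135 and 166 CPM. Primitive erythroid-like cells, the free RNA reference for other genes, held 111 and 145 CPM of Itga8.

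Itga8 also divided sclerotome-like cells in the finer partition, with 320.2 CPM in 1 fine cluster and 31.4 CPM in another. Itgav was counted in all clusters, from 49.6 CPM in neuron-like to 147 CPM in intermediate mesoderm-like cells over both libraries. Primitive erythroid-like cells were at 59.6 CPM, so the lowest clusters lay at the level of the free RNA reference. The interval of intermediate mesoderm-like cells overlapped that of endothelial-like cells. Among Usb1-null cells floor plate-like cells were highest, at 139.96 CPM. Itga2b and Itgb3 form the fibrinogen receptor of platelets. They were at 1990 and 1888 CPM in 27 megakaryocyte-like cells, 21 wild-type and 6 Usb1-null, a cluster too small to be compared. Those cells held 35.7% of wild-type and 15.9% of Usb1-null Itga2b UMIs, and 38.6% and 17.3% of Itgb3 UMIs.

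The collagen receptors Itga1 and Itga2 were both highest in endothelial-like cells. Itga1 was at 196 and 135 CPM there, and was higher in the smaller fine endothelial-like cluster (361 CPM) than in the larger (137 CPM). Itga2 was at 89.8 CPM in endothelial-like cells, which held 67.2% of its UMIs, and its next highest cluster was at 9.94 CPM. In the fine clusters Itga2 had the opposite order to Itga1, with 49.9 CPM in the smaller and 93.3 CPM in the larger. Itga10 and Itga11 were low, at most 16.97 and 23.5 CPM in any of the 17 clusters, the latter in primitive erythroid-like cells.

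Itga9, a receptor of tenascin and osteopontin known from lymphatic valves, held more UMIs than any other alpha subunit, with 241 CPM in the wild-type and 216 CPM in the Usb1-null library. It was highest in cluster 12, at 536 and 446 CPM, followed by endothelial-like cells at 421 and 409 CPM, and lowest in neural tube progenitor-like cells, at 35.1 CPM. Itga4, which binds fibronectin and Vcam1, was highest in cluster 15, at 75.6 and 125 CPM. The leukocyte integrins were near the limit of detection. Itgal held 7 and 13 UMIs, Itgam 0 and 5, Itgax 1 and 6, and their beta partner Itgb2 2 and 9. The count of 0 allows up to 3 UMIs by a one-sided limit, which is lower than the upper end of a two-sided exact interval. Itgae held 168 and 377 UMIs and was at most 17.3 CPM in any cluster.

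Of the beta subunits, Itgb1, the shared partner of most alpha subunits, was the most abundant of all 36 genes, at 368 and 353 CPM, and was in 37.6% of wild-type and 54.3% of Usb1-null cells. At 800 UMIs per cell these shares were 24.98% and 24.7%. It was highest in endothelial-like cells, at 633 and 577 CPM, and lowest in primitive erythroid-like cells, at 249.2 CPM. Itgb8, which with Itgav activates TGF-beta in the neural tube, was at 275 and 191 CPM in neural tube progenitor-like cells and at 236 and 198 CPM in cluster 6. Itgb5 was highest in surface ectoderm-like cells over both libraries, at 165 and 107 CPM, with an interval that overlapped that of sclerotome-like cells. Among Usb1-null cells alone intermediate mesoderm-like cells were highest, at 120.5 CPM. Itgb4, the partner of Itga6 in hemidesmosomes, was at most 14.8 CPM over both libraries among the 17 clusters, in cluster 11, and reached 15.6 CPM in a surface ectoderm-like cluster of the finer partition.

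Of the 31 genes with at least 100 UMIs, 8 were highest in endothelial-like and 5 in surface ectoderm-like cells, against 7.25% and 2.38% of all 15031 genes with as many UMIs. The same cluster was highest in each library for 21 of them, against 46.3% of all genes. For 16 the interval of the highest cluster did not overlap that of the next, against 21.6%. Genes were not matched by level here, and intervals are narrower for genes with more UMIs.

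Between the libraries, the summed level of both families over whole libraries was close to 1 to 1. The 36 genes together were at 1864 CPM in the wild-type and 1817 CPM in the Usb1-null library, a ratio of 0.975 (0.963 to 0.987). Laminin chains summed to a ratio of 0.986 (0.964 to 1.01) and laminin-binding alpha subunits to 1.06 (1.02 to 1.10). Summed alpha chains of laminin were at a ratio of 0.939 (0.909 to 0.970), collagen-binding alpha subunits at 1.12 (1.04 to 1.21), Itga4 and Itga9 at 0.894 (0.864 to 0.926), integrin beta subunits at 0.941 (0.919 to 0.963), and leukocyte alpha subunits, nearly all of whose UMIs were of Itgae, at 1.48 (1.24 to 1.78). Within clusters the sums spread more widely. Laminin chains lay between 0.683 in cluster 15 and 1.17 in cluster 3, with the interval below 1 in 3 clusters and above 1 in 1. Laminin-binding alpha subunits lay between 0.745 in neuron-like cells and 1.69 in cluster 12, with the interval above 1 in 5 clusters and below 1 in 1. Collagen-binding alpha subunits lay between 0.629 in floor plate-like cells and 2.51 in cluster 11, also with the interval above 1 in 5 clusters and below 1 in 1.

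Past 1.5-fold, 5 of the 32 genes with at least 20 UMIs (15.6%) were higher in the Usb1-null library, against 12.1% of the 18921 genes counted in the same way. Lower by as much were 2 of 32 (6.25%), against 6.71%. Both shares were near those of all genes, and the median log2 ratio of the 32 was −0.03 against 0.01 for all genes. Among the genes higher were Lamb3, Itgb4, Itgb6 and Itgb7, and the genes lower were Itga2b and Itgb3. In sums over a whole library, fewer cells of a type and less RNA per cell cannot be told apart. Some shares of cells differed. Primitive erythroid-like cells were 3.93% of wild-type and 1.47% of Usb1-null cells, and megakaryocyte-like cells 0.139% and 0.0461%. Some clusters went the other way, such as cluster 11, at 1.75% and 2.59%, and cluster 12, at 1.74% and 2.53%.

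Lamb3 (chr1:193207699-193343878, plus strand) had the highest ratio, with 139 wild-type and 667 Usb1-null UMIs, 6.40 and 19.98 CPM, a ratio of 3.12 (2.60 to 3.78). At 800 UMIs per cell, 0.513% of wild-type and 1.27% of Usb1-null cells held a Lamb3 UMI. Itgb4 (chr11:115974709-116008412, plus strand) followed with 102 and 369 UMIs, 4.69 and 11.1 CPM, a ratio of 2.36 (1.89 to 2.96). Lama3, the alpha chain found with Lamb3 in skin laminin, was at a ratio of 0.797 (0.570 to 1.12), and Itga6, the partner of Itgb4, at 1.08 (1.03 to 1.13).

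Itgb6 and Itgb7 rested on fewer counts, 28 and 78 UMIs and 26 and 74 UMIs, with ratios of 1.81 (1.16 to 2.90) and 1.85 (1.17 to 3.02). Itgb7 had a ratio in 1 cluster, cluster 1, where 10 and 10 UMIs gave 0.680 (0.254 to 1.82), and Itgb6 in 1, surface ectoderm-like cells, at 1.74 (0.816 to 4.03). Lamb2 lay just inside 1.5-fold, with 529 and 549 UMIs, 24.3 and 16.4 CPM, a ratio of 0.676 (0.598 to 0.763). On the higher side the nearest were Itgae at 1.46 (1.21 to 1.76) and Itga11 at 1.40 (1.22 to 1.61). The most abundant genes differed little, with Itgb1 at 0.959 (0.932 to 0.987), Lamc1 at 0.999 (0.956 to 1.04) and Itga9 at 0.896 (0.865 to 0.929).

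Itga2b and Itgb3 were below 1 in the whole libraries, at 0.572 (0.452 to 0.724) and 0.656 (0.512 to 0.841). Each had a ratio in 2 of the 17 clusters, above 1 in one and below 1 in the other. In primitive erythroid-like cells Itga2b was at 47.1 and 83.6 CPM, a ratio of 1.77 (1.07 to 2.96), and Itgb3 at 37.1 and 81.1 CPM, a ratio of 2.19 (1.27 to 3.81). Itga2b was at a ratio of 0.666 (0.401 to 1.11) in endothelial-like cells and Itgb3 at 0.935 (0.514 to 1.74) in cardiomyocyte-like cells. Without the 27 megakaryocyte-like cells, a step added after the data were seen, the ratios were 0.747 (0.567 to 0.985) and 0.883 (0.657 to 1.19). With both libraries weighted to the wild-type cluster shares, they were 1.14 and 1.41. That weighting covered only the 17 compared clusters, so the megakaryocyte-like cells were left out of it too. In that weighting 5 of 32 genes were past 1.5-fold higher and 0 lower, against 11.6% and 6.39% of all genes, and Lamb3 was at 3.08 and Itgb4 at 2.31.

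Within the 17 clusters a ratio could be formed in 324 pairs of a gene and a cluster with at least 20 UMIs. It was past 1.5-fold with an interval that left 1 in 32 pairs higher (9.88%) and 10 lower (3.09%), against 4.78% and 5.79% of the 175506 pairs of all genes. The pairs are not independent, since all come from the same 2 libraries, and Lamb3 and Itgb4 held 13 of the 32. Lamb3 was higher in 10 of 10 clusters, past the limits in 8, from 1.42 in cluster 11 to 5.73 in cluster 6. In sclerotome-like cells it was at 6.29 and 19.5 CPM, in cluster 3 at 6.87 and 34.0 CPM, and in endothelial-like cells at 2.84 and 13.9 CPM. In surface ectoderm-like cells, where the wild-type level was 15.7 CPM, the Usb1-null level was 25.04 CPM, a ratio of 1.60 (1.03 to 2.55).

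Itgb4 was higher in 7 of 7 clusters and past the limits in 5, from 1.26 in surface ectoderm-like to 3.84 in neural tube progenitor-like cells. For Lamb3 and Itgb4 the ratio in surface ectoderm-like cells was the lowest or the second lowest of the clusters.

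**Figure D5:**
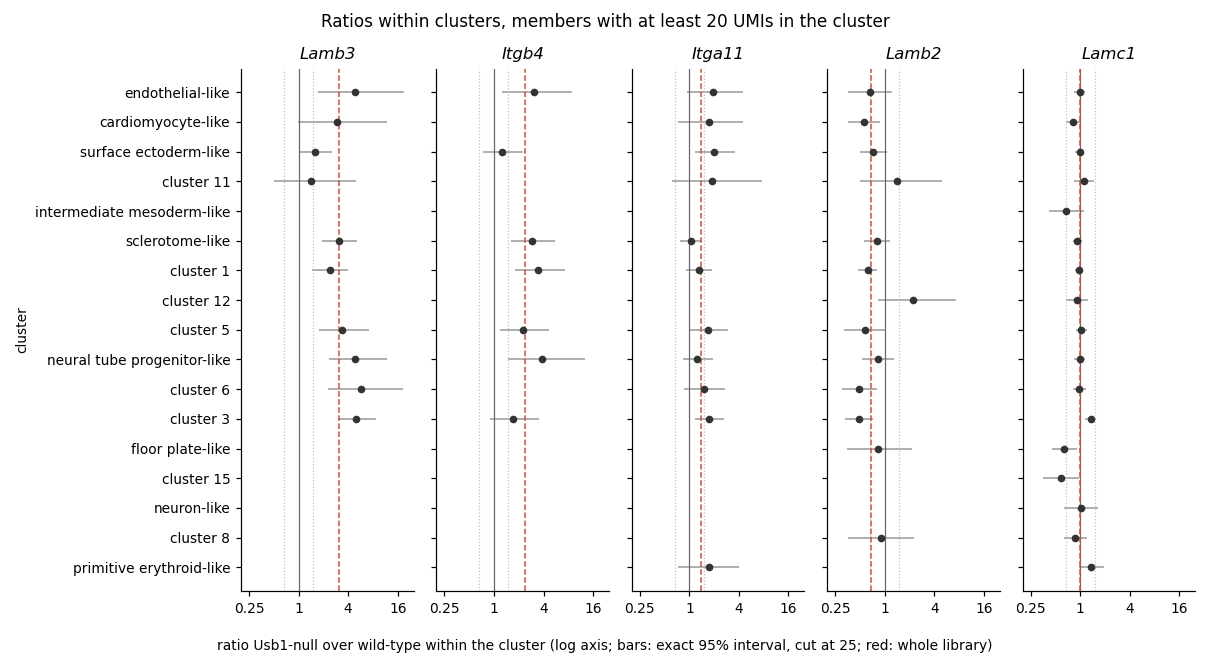
Ratio of Usb1-null to wild-type level (horizontal log axis) within each cluster with at least 20 UMIs for 5 genes, with exact 95% intervals cut at 25; the dashed red line is the whole-library ratio, the solid line marks 1 and the dotted lines mark 1.5-fold. Lamb3 was above 1 in 10 of 10 clusters, Itga11 in 11 of 11 and Itgb4 in 7 of 7, Lamb2 was below 1 in 11 of 13, and Lamc1 in 12 of 17.

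Among the other genes, Itga11, a receptor of fibrillar collagen, was higher in 11 of 11 clusters and past the limits in 3, from 1.05 to 2.00. Over both libraries no cluster held more Itga11 than the 23.5 CPM of primitive erythroid-like cells, the free RNA reference. Itga8 was higher in 11 of 14 and past the limits in 4, among them cluster 6 (13.4 and 28.2 CPM) and endothelial-like cells (15.6 and 30.3 CPM), where it was low. In floor plate-like cells its ratio of 9.56 (1.52 to 397) rested on 1 and 19 UMIs. Lamb2 was lower in 11 of 13 clusters and past the limits in 4, at 36.3 and 22.6 CPM in cluster 1 and 52.7 and 29.3 CPM in cardiomyocyte-like cells. Itga5 was lower in 15 of 16 and Lama5 higher in 12 of 15 clusters, each with 0 past the limits.

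Single pairs past the limits included Itgb5 in surface ectoderm-like cells, with 306 and 309 UMIs and a ratio of 0.650 (0.554 to 0.764), and Lama2 in cluster 5, with 83 and 56 UMIs and a ratio of 0.474 (0.332 to 0.673). Lamc1 was lower in 12 of 17 clusters and past the limits in 2, floor plate-like cells, at 167 and 107 CPM, and cluster 15, at 184 and 108 CPM. In cluster 15 Lamb1 was also past them, at 151 and 84.4 CPM. Itga6 was higher in cluster 8, at 152 and 249.2 CPM. Cluster 8 held few UMIs per cell in both libraries, and the part of that in the ratio was not tested. In the main source of each, the levels of Lama4 in endothelial-like cells, Lama1 in neural tube progenitor-like cells and Itga6 in cardiomyocyte-like cells were lower in Usb1-null cells by less than 1.5-fold.

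Genes that work with these families were read from 4 lists, to be set against the 12.1% of all genes past 1.5-fold higher and the 6.71% lower. With both libraries weighted to wild-type cluster shares, each list gained 1 gene past 1.5-fold lower (Col4a3, Vtn, Bcam and Fermt1), so that 8 in all were lower against 4. Of 18 other basement membrane genes, 0 were past 1.5-fold in either direction and the median log2 ratio was −0.06. The highest were Frem1 at 0.27, Col4a4 at 0.24 and Col4a6 at 0.23, and the lowest were Sparc at −0.45, Col4a2 at −0.36 and Col18a1 at −0.28 on the log2 scale. Of 13 other integrin ligands, 0 were higher past 1.5-fold and 3 lower, Postn at −1.12, Vcam1 at −0.79 and Mfge8 at −0.71, with a median of −0.19. The highest ligands were Edil3 at 0.37, Egfl6 at 0.22 and Npnt at 0.06.

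Of 11 laminin receptors that are not integrins, 2 were past 1.5-fold higher, the adhesion molecule Mcam at 0.89 and the proteoglycan Sdc4 at 0.81, and 0 lower, with a median log2 ratio of 0.02. The third highest was Sdc3 at 0.29, and the lowest were Bcam at −0.56, Sdc1 at −0.21 and Dmd at −0.07. Of 29 adaptors that link integrins to the cytoskeleton or sit beside them, 1 was past 1.5-fold higher, Parvg with 1 and 20 UMIs, and 1 lower, Cd151, a tetraspanin partner of laminin-binding integrins, at −0.73. The median was −0.08. Plec, which ties Itgb4 to keratin, was the highest of the well-counted adaptors at 0.36, followed by Cd47 at 0.15 and Tns2 at 0.14, and the lowest after Cd151 were Fermt1 at −0.47 and Tln1 at −0.44.

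Expected partners did not all share a pattern over the 17 clusters. Pearson's r was 0.692 for Lamb1 and Lamc1, 0.727 for Itga2b and Itgb3 and 0.532 for Itgav and Itgb5. It was 0.344 for Itga6 and Itgb1, −0.381 for Itgav and Itgb8, −0.205 for Lama1 and Lamb1 and −0.051 for Itga8 and its ligand Npnt. For Lama1 and Lamb1 it was −0.427 among wild-type and −0.021 among Usb1-null cells, and for Itga8 and Npnt 0.166 and −0.196. These values are descriptions over clusters of the same 2 libraries. A search of 10881 genes for the levels most like those of a member over the 17 clusters named Itgb1 for Itga5 (0.920), Arhgap31 (0.928) and Vcl (0.879) for Lama4, Zfp36l1 for Lama1 (0.867), P3h2 for Lama2 (0.829), and 4930522L14Rik (0.885), Cgn (0.857) and St14 (0.847) for Lama5, the latter pair known from epithelia. For Itga6 the highest were Gm3739 (0.811) and Plekhb2 (0.808), for Itga8 Dtwd2 (0.804) and for Itgb4 Cryl1 (0.883).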

How the data were processed

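Dissociated whole embryos were barcoded with the 10x Genomics 3′ kit, chemistry v3.1. The authors deposited raw UMI counts per gene and cell barcode, with no normalisation. The header of each matrix names Cell Ranger 6.1.2, whereas the submitters' processing notes name Cell Ranger 2.1.1 and the build mm10. No source used here states whether intronic reads were counted. The molecule is labelled nuclear RNA, although the protocol describes a suspension of cells. Coordinates were taken from GENCODE M21 on GRCm38, in which all 36 members were found by identifier. Exons of 0 members overlapped another gene on the same strand, and those of 7 did on the opposite strand.

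Cells with 200 to 6000 genes and under 30% mitochondrial UMIs were kept, the limits the study states. This removed 1 barcode of 15162 (wild-type) and 16 of 13034 (Usb1-null). It did not give the cell numbers stated in the study, which are lower for the wild-type library and for the Usb1-null library equal the barcodes before the filter. The deeper Usb1-null library counts low genes more precisely. Cells were clustered in Scanpy 1.11.5 on 30 principal components of 2000 variable genes per library, without the 36 members, after Harmony correction rewritten in NumPy 2.4.6, with leidenalg 0.10.2 at resolution 0.4 and at 1.2 for the finer partition. Markers from 26 lists were raised where they had 10 or more UMIs and 2-fold the level of the other cells. A cluster was named from the list with at least 3 raised markers, at least 2 more than the next and no fewer among its 10 leading genes, a rule set after the clusters were seen. Because cluster names were made anew, they may differ from those of the study. Scrublet called 1025 wild-type (6.76%) and 560 Usb1-null cells (4.30%) as doublets, which were kept except in an alternative.

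Summed UMIs per library and cluster were given as CPM with exact Poisson intervals, shares with Clopper-Pearson exact intervals, and ratios of Usb1-null to wild-type with exact conditional binomial intervals (SciPy 1.17.1). For log2 ratios, 1 CPM was added to each level, so those of low genes are understated. Ratios needed 20 UMIs, and levels by cluster 100 UMIs. Interval coverage was tried only on simulated Poisson counts, the model that the intervals assume. It therefore does not speak to variation between cells or embryos. Named genes were the members and, in each partner list, those past 1.5-fold and the 3 highest and 3 lowest with at least 100 UMIs. Values of 1 member, which counts in the sums, are not reported here. The members, lists and alternatives were chosen with earlier results of these data known. Too small to compare were the hepatocyte-like cells (0 wild-type and 64 Usb1-null), the megakaryocyte-like cells and a cluster of 19 wild-type and 26 Usb1-null cells. Promoter sequences came from RefSeq tables.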

Additional observations from a re-analysis of the deposited data

How the results depend on the processing

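Each genotype had 1 library, and low counts for several genes limited the ratios within clusters. No paired analysis was possible because each genotype had 1 library. Of the 32 member log2 ratios, 7 changed sign under at least 1 alternative. For 5 of them (Lamb1, Lamc1, Lamc3, Itgav and Itgal) the interval held a ratio of 1 and the log2 ratio was at most 0.07 in size. The other 2 changed sign when each library was weighted to wild-type cluster shares, where Itga2b was at 0.16 and Itgb3 at 0.40. The other 30 moved there by less than their intervals. That weighting covered only the clusters compared between the libraries, so it also left out the megakaryocyte-like cells. Beyond their intervals moved 4 under the stricter minimum of 1000 detected genes per cell, 3 after thinning, 2 with 5 CPM added and 2 without megakaryocyte-like cells. The number past 1.5-fold was 5 to 10 over the alternatives, with 6 higher and 0 lower under the stricter minimum, 6 and 4 with Scrublet calls removed, 5 and 0 with wild-type cluster shares and 5 and 0 without megakaryocyte-like cells. The laminin sum ratio was 0.964 under that minimum and between 0.971 and 0.987 in the other alternatives. Thinning to 800 UMIs left 24 of 230 pairs within clusters past the limits, against 42 of 324. The correlation of laminin and laminin-binding integrin sums fell from 0.596 to 0.406 at Leiden resolution 1.2, 0.426 with another seed, 0.426 with the members kept among the variable genes and 0.427 without Harmony. Partner genes past 1.5-fold were 11 (3 higher and 8 lower) with wild-type cluster shares, against 7 (3 and 4). The causes of these moves were not tested. Highest clusters remained for 24 to 28 of 31 genes under the other clusterings. Leaving out megakaryocyte-like cells, hepatocyte-like cells or cluster 8 was chosen after seeing the data.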
